A study of Mus musculus with 8 samples.

Results

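The genes described here are 10 mouse genes of the integrated stress response that is set off when mitochondria fail. They comprise the transcription factors *Atf4*, *Atf5*, and *Ddit3*, the pseudokinase *Trib3*, the amino acid and one-carbon enzymes *Asns*, *Phgdh*, *Psat1*, and *Mthfd2*, and the secreted factors *Gdf15* and *Fgf21*. They were picked by name as genes of the ATF4 pathway, of one-carbon metabolism, and of the mitokines, with earlier results of these data known, and the rule itself uses no measured value. The count table listed 16994 genes and held 9 of the 10. All 9 passed a filter on low values (a mean CPM, the count scaled to a common library total, of 1 or more), as did 12999 genes, and these were the genes tested. *Fgf21* was not analysed here.

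The samples were heart tissue from WT mice and from mice with a whole-body knockout of TIGAR (TKO), an enzyme that restrains glycolysis. The infarct, border, and remote zones came from male mice whose left anterior descending coronary artery was permanently tied at 16 weeks of age. Heart function was followed to 4 weeks after the ligation, and the time at which the sequenced tissue was taken is not given in the sources used here. A further sample of left ventricle from each genotype served as the reference, and whether those hearts had a sham operation is not given in the sources used here. Each genotype and region was 1 RNA-seq library, 8 in all, and the infarct zone libraries held RNA pooled from 3 mice, so a difference between 2 libraries has no replicate check. As a whole-body knockout, TKO removes the gene from muscle, stromal, and blood-derived cells alike.

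The integrated stress response begins with the phosphorylation of the initiation factor eIF2, which slows protein synthesis in general while the mRNAs of ATF4, ATF5, and CHOP (the product of *Ddit3*) are translated more. When mitochondria are impaired, the protease OMA1 cleaves DELE1, which activates the eIF2 kinase HRI, and ATF4 then switches on genes for amino acid supply, serine synthesis, and the mitochondrial folate cycle. Heart muscle with defective mitochondria is known to make the enzymes of this program and to secrete GDF15 and FGF21 into the blood. Because ATF4 is controlled mainly at translation, its mRNA is one readout of the pathway and its target mRNAs are another.

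ATF4 with a C/EBP partner binds a short element in the promoters of many of its targets, and the core of this element, TGATGNAA, was searched on both strands in the 300 bases of RefSeq promoters (GRCm38.p6, 250 bases before the start of transcription to 50 after it). It was present in 3.97% of 32851 promoters. All 10 genes had a RefSeq promoter, 13 in all, and the core was found in 3 of these (23.1%), those of *Asns*, *Trib3*, and *Fgf21*. Among 23 promoters of 17 other ATF4 and CHOP response genes 30.4% held it, as did 62.5% of 8 promoters of cytosolic tRNA synthetases. None of 12 promoters of serine and one-carbon enzymes and none of 10 of mitochondrial chaperones and proteases held these letters. The windows of 30 bases around the match are shown for both measured members, to give the letters behind the ATF4 pathway label, and for *Nupr1* and *Chac1*, the targets with the highest and the lowest infarct zone fold among those called. The capitals mark the core, which in *Trib3*, *Nupr1*, and *Chac1* reads on the strand opposite to the gene. The windows lie at chr6:7693214-7693243 (minus strand), chr2:152344028-152344057 (minus strand), chr7:126625562-126625591 (minus strand), and chr2:119351038-119351067 (plus strand), in the order of the lines.
*Asns*: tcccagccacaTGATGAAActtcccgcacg
*Trib3*: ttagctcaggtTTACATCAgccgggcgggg
*Nupr1*: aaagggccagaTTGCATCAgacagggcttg
*Chac1*: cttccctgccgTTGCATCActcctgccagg
A match is a description of the sequence and was not tested for binding.

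The libraries held 27429240 to 33799249 estimated counts. *Tigar* had 1066 to 2215 counts in the WT libraries and 51 to 87 in the TKO libraries, which matched the labels. Levels are given as CPM scaled by edgeR's TMM factors, which were 1.54 in the WT infarct zone and 1.26 in the TKO infarct zone against 0.866 to 0.956 in the other 6 libraries. Summed over 8 markers, cardiomyocyte genes lay at 8269 CPM in the WT and 17310 in the TKO infarct zone against 27820 to 38480 elsewhere, fibroblast genes at 8277 and 6856 against 873.9 to 2995, and macrophage genes at 1603 and 1205 against 332.3 to 604. No marker of these 3 lists was at 0 in any library. In such bulk tissue, fewer cells of a type and less RNA per cell cannot be told apart.

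Per kilobase of exon, the transcription factors were the most abundant of the 9 genes in these hearts. The median level over the 8 libraries was 35.7 CPM per kb for *Atf5*, 31.2 for *Atf4*, and 12.7 for *Ddit3*, followed by 3.85 for *Gdf15*. The other 5 genes lay together, at 1.83 CPM per kb for *Asns*, 1.66 for *Trib3*, 1.54 for *Phgdh*, 1.33 for *Psat1*, and 1.32 for *Mthfd2*, and their ranges over the libraries overlapped. The ranges of *Atf5* (27.4 to 63.5) and *Atf4* (27.4 to 36.9) overlapped as well, whereas that of *Ddit3* (9.39 to 14.9) lay below both and above *Gdf15* (2.57 to 7.53). The genes also differed in how much they varied. The highest library exceeded the lowest 4.01-fold for *Phgdh*, 3.83-fold for *Mthfd2*, 2.93-fold for *Gdf15*, and 2.32-fold for *Atf5*, but 1.35-fold for *Atf4* and 1.37-fold for *Psat1*.

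**Figure D1:**
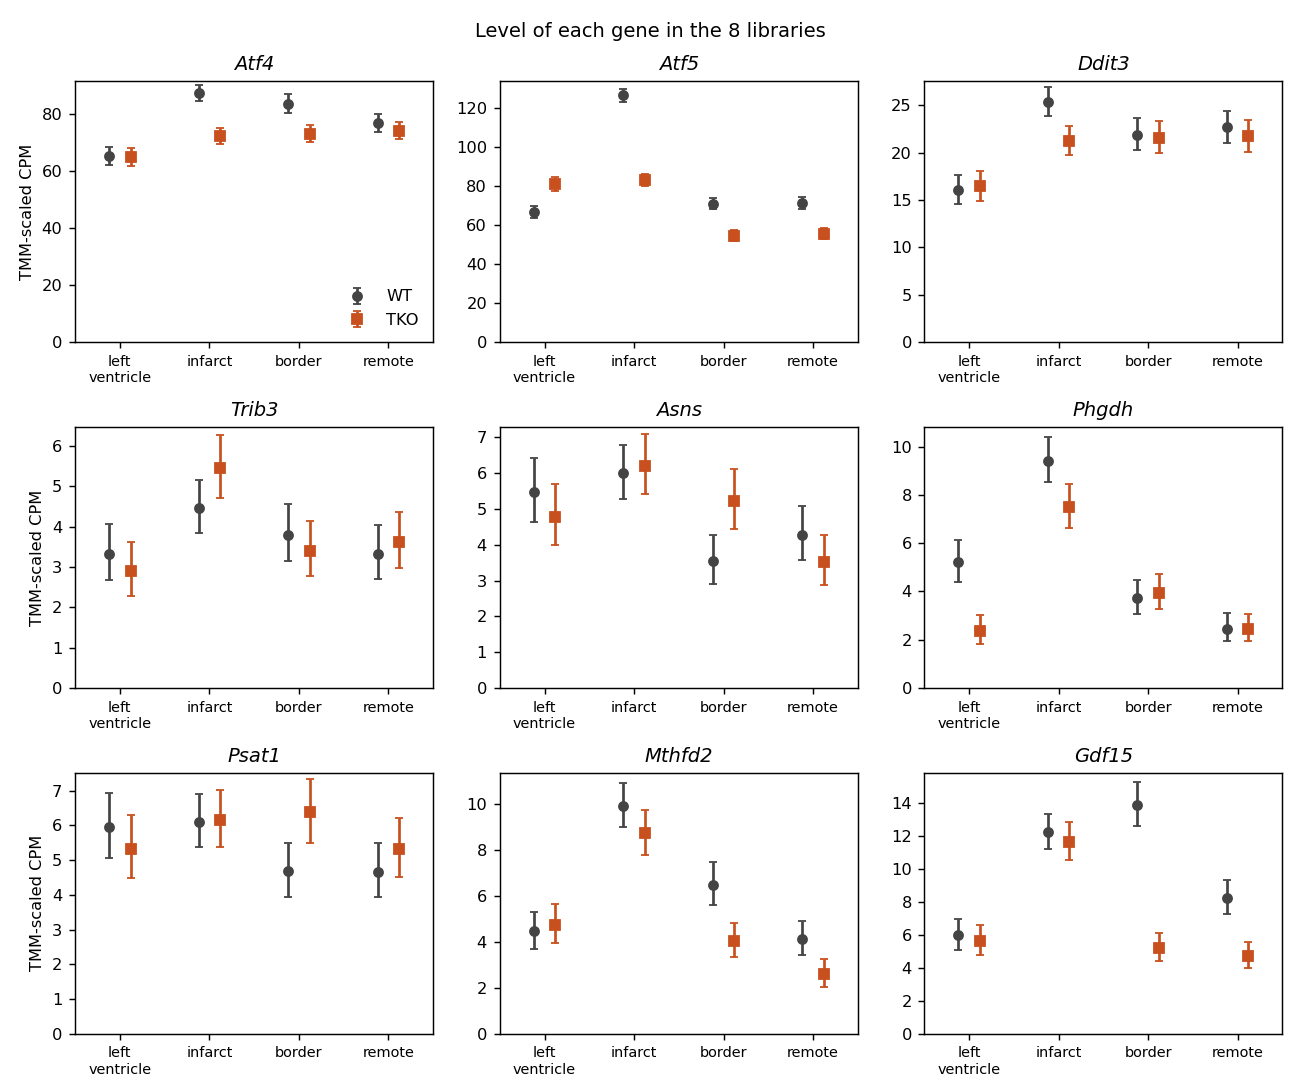
TMM-scaled CPM of the 9 measured genes (linear axes from 0) in the 4 regions, with WT as grey circles and TKO as orange squares, 1 library each; bars are exact 95% intervals from the counts and cover counting error only. *Phgdh* and *Mthfd2* are highest in both infarct zone libraries, *Gdf15* is highest in the WT border zone at 13.9 CPM and at 5.23 CPM in the TKO border zone, and *Atf4* spans 64.7 to 87.2 CPM.

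*Atf4*, the central transcription factor of the response (chromosome 15, 80255184 to 80257541, GRCm38), varied little. Its level in WT was 65.1 CPM in the left ventricle and 87.2, 83.4, and 76.8 in the infarct, border, and remote zones. TKO had 64.7, 72.1, 73.0, and 74.0 in the same order. The left ventricle libraries were thus the lowest of both genotypes, and TKO lay below WT in 4 of 4 regions, most in the infarct zone. The TKO over WT ratio there was 0.827 (exact Clopper-Pearson 95% interval on the counts, 0.786 to 0.870). It was 0.875 for the border zone (0.826 to 0.927), 0.964 for the remote zone (0.909 to 1.02), and 0.993 for the left ventricle (0.928 to 1.06), and the last 2 intervals hold a ratio of 1. All such intervals cover counting error only, because the reads carry no molecular identifiers.

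*Atf5*, a related factor of the mitochondrial unfolded protein response (chromosome 7, 44812256 to 44816658), differed more. In WT it stood at 66.5 CPM in the left ventricle and at 126, 70.9, and 71.3 in the infarct, border, and remote zones. TKO had 80.8, 82.7, 54.5, and 55.5 CPM. The WT infarct zone was therefore the highest library by a wide margin, and TKO lay above WT in the left ventricle, with a ratio of 1.22 (1.14 to 1.30), but below it in the other regions. For the infarct zone the ratio was 0.655 (0.626 to 0.685), for the border zone 0.768 (0.720 to 0.820), and for the remote zone 0.779 (0.730 to 0.831). The span of *Atf5* overlaps those of *Il4i1* and *Nup62* on the opposite strand, and whether their exons overlap was not examined. Without stranded counts, reads from sequence that exons of 2 genes share cannot be told apart.

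*Ddit3*, which encodes the proapoptotic factor CHOP (chromosome 10, 127290774 to 127296288), had 16.1 CPM in the WT left ventricle and 25.4, 21.9, and 22.7 in the WT infarct, border, and remote zones. TKO had 16.5, 21.2, 21.6, and 21.7 CPM. As for *Atf4*, both left ventricle libraries lay below all 6 libraries of infarcted hearts. The infarct zone ratio of TKO over WT was 0.835 (0.760 to 0.917), and in the other regions it was 0.958 to 1.02 with intervals that hold 1. *Ddit3* shares its locus with *Mars1*, the methionine tRNA synthetase, on the opposite strand and with a second *Ddit3* gene model. Its count is uncertain as far as their exons overlap, which was not examined.

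*Trib3*, a CHOP target that dampens AKT signaling, had 2.90 to 5.46 CPM, with both infarct zone libraries on top (4.47 in WT and 5.46 in TKO). The other 6 libraries lay between 2.90 and 3.80 CPM, and each TKO over WT ratio had an interval that held 1. With 75 to 195 counts a library, these intervals ran from 0.634 at the lowest to 1.5 at the highest.

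The amino acid and folate enzymes differed among themselves. *Phgdh*, the first enzyme of serine synthesis (chromosome 3, 98313170 to 98339990), had 5.22 CPM in the WT left ventricle and 2.36 in the TKO left ventricle, 9.43 and 7.5 in the infarct zones, 3.73 and 3.94 in the border zones, and 2.47 and 2.46 in the remote zones. The infarct zones were highest in both genotypes, while the TKO left ventricle was as low as both remote zones. *Psat1*, the next enzyme of the same pathway, spanned 4.67 to 6.37 CPM without a zone standing apart. *Asns*, which makes asparagine, was highest in the infarct zones, at 6 CPM in WT and 6.21 in TKO, and elsewhere lay between 3.52 and 5.47. *Mthfd2*, the mitochondrial folate enzyme that is scarce in most adult tissues (chromosome 6, 83305691 to 83325908), had 4.45 CPM in the WT left ventricle and 9.93, 6.49, and 4.11 in the WT infarct, border, and remote zones. TKO had 4.75, 8.73, 4.05, and 2.59 CPM, so both infarct zones were highest and the TKO remote zone was lowest.

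*Gdf15*, a stress-induced hormone of the TGF-β superfamily that acts on the hindbrain (chromosome 8, 70629393 to 70632456), had 5.98 CPM in the WT left ventricle and 12.3, 13.9, and 8.25 in the WT infarct, border, and remote zones. In TKO it had 5.64, 11.7, 5.23, and 4.75 CPM. The zones of the WT heart thus all lay above the WT left ventricle, but of the TKO zones only the infarct zone did so relative to its own left ventricle. The 3 TKO libraries outside the infarct zone and the WT left ventricle lay between 4.75 and 5.98 CPM, and their counting intervals overlapped. The intervals of the WT infarct zone (11.2 to 13.4), the TKO infarct zone (10.6 to 12.8), and the WT border zone (12.6 to 15.3) overlapped as well.

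The first question of the design was whether TIGAR deficiency changed these genes. In the infarct zone no member differed 2-fold between the genotypes, and in the remote zone none did, whereas *Phgdh* did in the left ventricle and *Gdf15* in the border zone. *Phgdh* had 61 counts in the TKO and 143 in the WT left ventricle, and the scaled ratio was 0.451 (0.329 to 0.613). *Gdf15* had 155 counts in the TKO and 429 in the WT border zone, a ratio of 0.375 (0.310 to 0.452). At least 2-fold different genes were counted after a prior count of 2, and with 1 library a group no p-value can be given. The members' counts of 1 of 9 in the left ventricle and of 0, 1, and 0 in the infarct, border, and remote zones stand against 5.6%, 3.83%, 4.49%, and 3.56% of all genes tested.

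Below 2-fold, the secreted factor and the folate enzyme lay lower in the TKO border and remote zones. For *Gdf15* the remote zone ratio was 0.576 (0.466 to 0.710), from 143 and 251 counts. *Mthfd2* stood at 0.623 in the border zone (0.493 to 0.785, from 120 and 200 counts) and at 0.631 for the remote zone (0.469 to 0.843, from 78 and 125 counts). In the infarct zone both were close to 1, with 0.951 for *Gdf15* (0.834 to 1.08) and 0.879 for *Mthfd2* (0.757 to 1.02). Other enzymes went the opposite way in the border zone, where the ratio was 1.48 for *Asns* (1.15 to 1.90) and 1.36 for *Psat1* (1.09 to 1.71). Over the 9 members, 6 were lower in TKO in the left ventricle, and 6, 6, and 7 in the infarct, border, and remote zones. Of all genes tested, 51.4%, 50.8%, 49.7%, and 47.9% were higher in TKO in the same order. The median ratio of the members was 0.942, 0.879, 0.897, and 0.958, against a median of all genes of 1.01, 1, 0.999, and 0.993.

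**Figure D2:**
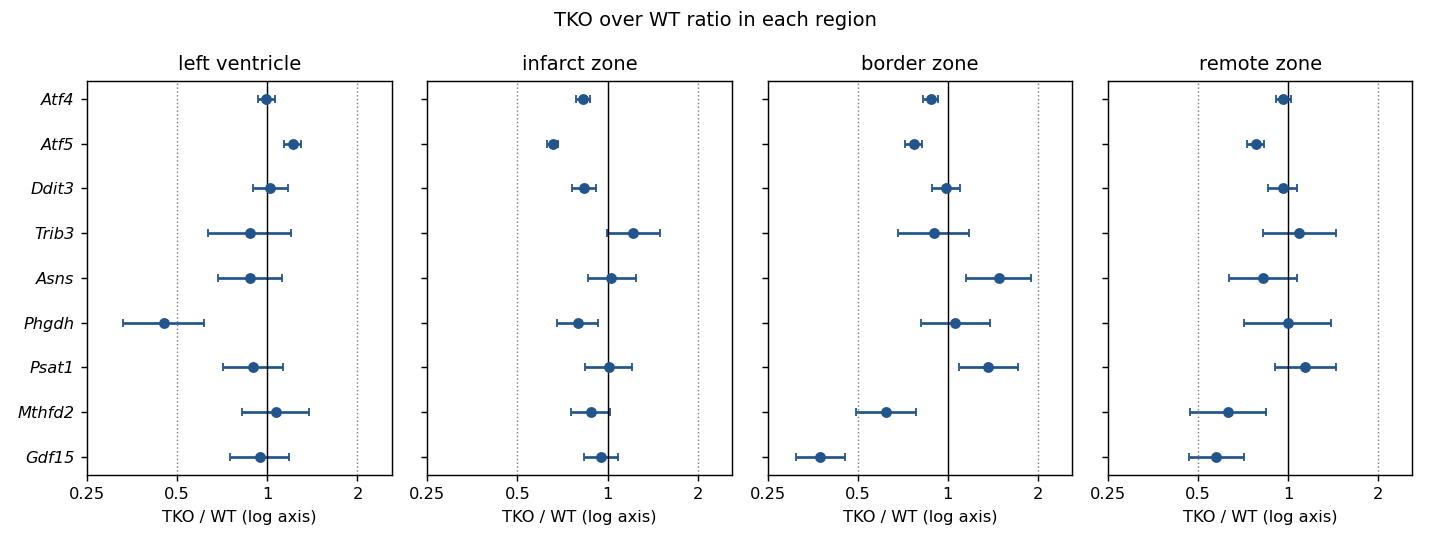
TKO over WT ratio of TMM-scaled counts (log axis) for the 9 genes in each region, with exact 95% intervals that cover counting error only; dotted lines mark 2-fold. *Phgdh* in the left ventricle (0.451) and *Gdf15* in the border zone (0.375) lie beyond 2-fold, and *Asns* and *Psat1* in the border zone lie to the right of 1.

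Scaling mattered most in the infarct zone. With total counts alone each TKO over WT ratio there was multiplied by 0.816, and 9 of 9 members, rather than 6, were lower in TKO, while the border zone count went from 6 to 7 and the left ventricle and remote zone counts stayed at 6 and 7. *Trib3* at 1.22, *Asns* at 1.03, and *Psat1* at 1.01 were the members whose infarct zone direction depended on this choice.

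Cell marker lists differed in direction between the genotypes in the border and remote zones. Summed TKO over WT levels there were 1.22 and 1.11 for cardiomyocyte, 0.966 and 1.06 for endothelial, and 0.733 and 0.798 for lymphocyte markers. Relative to WT, the summed fibroblast markers stood at 0.537 in the TKO border zone and at 0.644 in the TKO remote zone, the cycling cell markers 0.613 and 0.640, and the macrophage markers 0.748 and 0.688. Such sums weigh abundant genes most. In the test across regions described below, the TKO against WT fold of single fibroblast markers ran from 0.53 for *Postn* to 0.975 for *Pdgfra*. In the infarct zone the fibroblast, cycling cell, and macrophage lists stood at 0.828, 0.758, and 0.752, and cardiomyocyte markers at 2.09. In the left ventricle, where *Phgdh* differed, fibroblast markers stood at 1.12, macrophage markers at 0.867, cycling cell markers at 0.862, and lymphocyte markers, which are sparse, at 0.298 (11.8 CPM in WT and 3.51 in TKO). The part of these cells in the *Gdf15*, *Mthfd2*, and *Phgdh* differences was not tested.

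**Figure D3:**
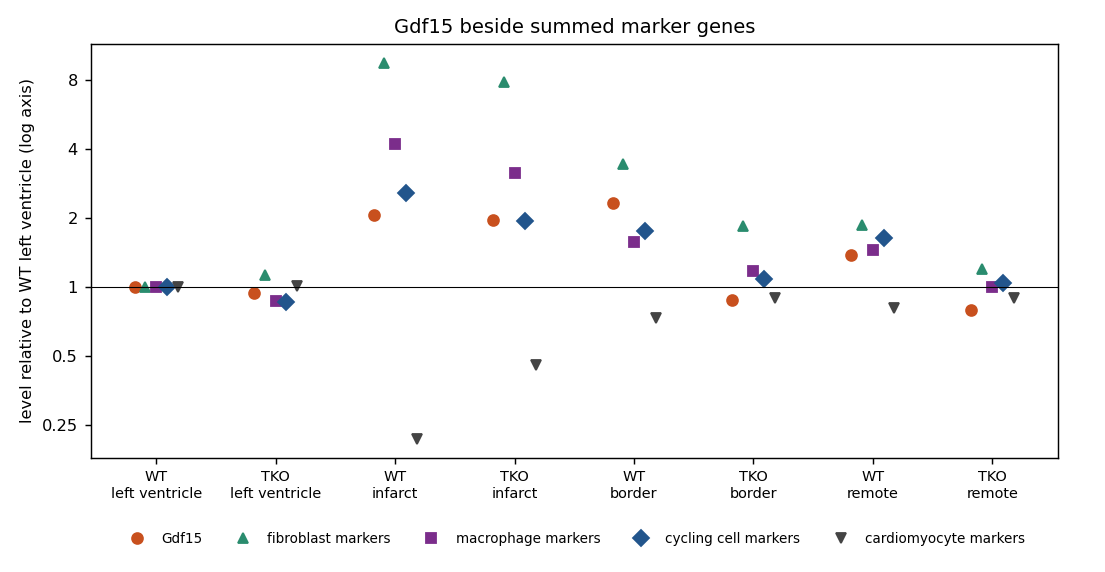
*Gdf15* (TMM-scaled CPM) and the summed CPM of 8 fibroblast, 8 macrophage, 8 cycling cell, and 8 cardiomyocyte markers in the 8 libraries, each divided by its own level in the WT left ventricle (log axis). *Gdf15* lies 2.33-fold above the WT left ventricle in the WT border zone, where fibroblast markers lie at 3.43-fold, and below it in the TKO border and remote zones; the cardiomyocyte sum is lowest in the WT infarct zone.

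A test across regions asked whether TKO differed from WT in the same way in all of them, with region as a block in edgeR's quasi-likelihood fit. No member passed a Benjamini-Hochberg adjusted p of 0.05, as against 18 of 12999 genes (0.138%). *Gdf15* came nearest, at -0.59 ± 0.24 (log2, SE, 8 libraries) with an adjusted p of 0.305, lower in TKO in 4 of 4 regions. It was the 1 member with an unadjusted p under 0.05 (0.0482), a level that 2109 of 12999 genes reached. DESeq2 called 0 members as well. The log2 differences of the other members lay between -0.35, for *Mthfd2* (SE 0.17) and *Phgdh* (SE 0.23), and 0.12 for *Psat1* (SE 0.14). Those of *Asns* and *Trib3* were 0.03 and 0.02 and turned negative with total counts. The regions stand in for replicates here, so the p-values bear on the regions of these libraries and not on mice.

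Whether the genotype difference itself departed in 1 region from the other 3 was tested with an interaction term. In the infarct zone 0 of 9 members passed with edgeR's quasi-likelihood test, where 0.00769% of all genes passed, and DESeq2 called 0 members. An unadjusted p under 0.05 was reached by 0 members and by 1018 of 12999 genes. In the left ventricle 0 of 9 passed as well, where 0.646% of all genes did, and DESeq2 called 0 members. Here an unadjusted p under 0.05 was reached by 2 members and by 2179 of 12999 genes. The 2 members were *Atf5*, at 0.73 ± 0.16 (log2, SE; edgeR adjusted p = 0.129), and *Phgdh*, at -1.05 ± 0.33 (edgeR adjusted p = 0.214). The contrast between the *Gdf15* ratios of the infarct zone and the other regions was 0.71 ± 0.50 (edgeR adjusted p = 0.926).

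The second question was how the genes differed between the infarct zone and the left ventricle. Marker sums differed in the same step, at 0.217 in WT and 0.45 in TKO for cardiomyocyte genes. For fibroblast genes they stood at 9.47 and 6.99, and the part of cell makeup in the members' differences was not tested. In the infarct zone 5 of the 9 members were higher than in the left ventricle over both genotypes, by the quasi-likelihood test of edgeR (p-values adjusted by Benjamini-Hochberg), and none were lower. This test has only 1 library per genotype and region, so its p-values bear on these libraries and not on mice. The same holds for the other zone comparisons below. *Phgdh* rose 2.29-fold (log2 1.20 ± 0.32 SE, adjusted p = 0.0185), *Gdf15* 2.07-fold (1.05 ± 0.34, adjusted p = 0.0368), and *Mthfd2* 2.01-fold (1.01 ± 0.24, adjusted p = 0.0125). *Trib3* rose 1.59-fold (0.67 ± 0.23, adjusted p = 0.0435) and *Ddit3* 1.43-fold (0.52 ± 0.11, adjusted p = 0.00731). The 4 that did not pass were *Atf5* at 0.47 ± 0.21, *Atf4* at 0.29 ± 0.11, *Asns* at 0.25 ± 0.25, and *Psat1* at 0.12 ± 0.20, with adjusted p-values of 0.0988, 0.062, 0.418, and 0.644. The infarct zone was so different a tissue that 56.8% of all genes passed this test in either direction, a share that 5 of 9 is near. All 5 were higher, and 28.2% of all genes passed as higher. The median log2 difference of the 9 was 0.52, against 0.02 over all genes.

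That count held for scalings that use the bulk of the genes and not for total counts alone. Total counts raised the median of all genes from 0.02 to 0.71 on the log2 scale. They called 9 of 9 members higher, together with 7869 genes higher and 1084 lower in place of 3670 and 3715. *Trib3* is at the edge of the threshold, with an adjusted p of 0.0525 by DESeq2 and 0.0652 with no filter on low values. In each of these 2 settings 4 members passed. With at least 10 counts in every library 6 did, among them *Atf4* at 0.31 (edgeR adjusted p = 0.0462).

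The single-library ratios of this step were alike in the genotypes for some members and not for others. Whether the ratios differ between the genotypes was not tested as such. The departure of the infarct zone genotype difference from the other 3 regions was -0.46 ± 0.30 (log2, SE) for *Atf5*, 0.36 ± 0.38 for *Trib3*, and 0.02 ± 0.55 for *Phgdh*. In WT the infarct zone over left ventricle ratio was at least 2-fold for *Mthfd2* (2.23, 1.82 to 2.75) and *Gdf15* (2.05, 1.72 to 2.46), 2 of 9 members, where 33.6% of all genes were 2-fold apart in either direction and 18.8% were higher. In TKO it was at least 2-fold for *Phgdh* (3.18, 2.40 to 4.28) and *Gdf15* (2.07, 1.71 to 2.52), 2 of 9, where 23.9% of all genes were 2-fold apart in either direction and 16.2% were higher. The TKO value for *Phgdh* is set against the low TKO left ventricle, and in WT the ratio was 1.81 (1.49 to 2.20). *Atf5* was 1.90-fold higher in the WT infarct zone (1.80 to 2) and 1.02-fold in TKO (0.968 to 1.08). *Trib3* stood at 1.35 in WT (1.04 to 1.75) and 1.88 in TKO (1.44 to 2.49). All 9 ratios were above 1 in both genotypes, where 50.8% of all genes were higher in each. In each genotype 7 of 9 intervals lay above 1, and such intervals were not counted over all genes.

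Because the condition of the left ventricle hearts is not given, the infarct zone was also set against the border and remote zones of the infarcted hearts, a comparison chosen after the data were seen. Here 3 of 9 members passed, all higher, where 54.2% of all genes passed and 27.7% were higher. *Phgdh* rose 2.72-fold (log2 1.44 ± 0.26, edgeR adjusted p = 0.00485), *Mthfd2* 2.26-fold (1.18 ± 0.20, adjusted p = 0.00392), and *Atf5* 1.65-fold (0.72 ± 0.17, adjusted p = 0.0141). *Ddit3* did not pass at 0.08 ± 0.09 (adjusted p = 0.471), nor did *Gdf15* at 0.69 ± 0.28 (adjusted p = 0.0788) or *Trib3* at 0.49 ± 0.19 (adjusted p = 0.0707). Both enzymes *Phgdh* and *Mthfd2* therefore passed against either reference.

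**Figure D4:**
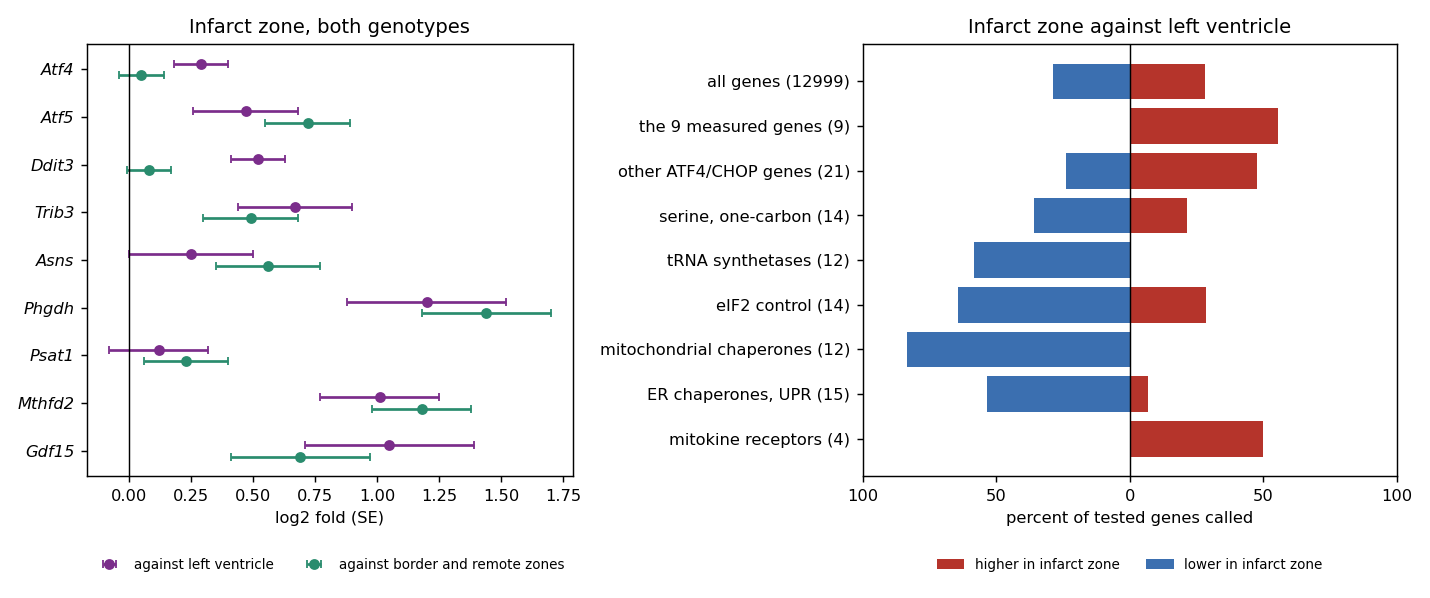
Left, log2 fold of the infarct zone over the left ventricle and over the border and remote zones (points, with bars of 1 SE from edgeR's fit over 8 libraries); right, the percent of each list called higher or lower in the infarct zone against the left ventricle, with the number tested in brackets. *Phgdh* and *Mthfd2* lie above 1 against both references, and mitochondrial chaperones were called lower in 10 of 12 and higher in none, a list that stays mostly lower under total counts (10 lower, 2 higher).

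In the border zone 0 of 9 members passed against the left ventricle with edgeR's quasi-likelihood test, where 0.715% of all genes did. An unadjusted p under 0.05 was reached by 2 members and by 2333 of 12999 genes. The 2 members were *Ddit3* at 0.42 ± 0.11 (adjusted p = 0.138) and *Atf4* at 0.27 ± 0.11 (adjusted p = 0.278). DESeq2 called 0 members. In the remote zone 0 of 9 members and 0 of all genes (0%) passed with edgeR, although 1378 genes had an unadjusted p under 0.05 and DESeq2 called 162. *Ddit3*, at 0.45 ± 0.11 (adjusted p = 0.308), was the 1 member with an unadjusted p under 0.05, and DESeq2 called 0 members.

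Within a genotype, the WT border zone had 1 of 9 members at least 2-fold above its left ventricle, where 5.45% of all genes were higher and 7.29% were 2-fold apart in either direction, and this was *Gdf15* at 2.33 (1.94 to 2.80). In the TKO border zone 0 of 9 were 2-fold apart in either direction, against 6.12% of all genes (4.42% higher), and *Gdf15* stood at 0.927 (0.735 to 1.17). In the WT remote zone 1 of 9 was 2-fold different, against 5.51%, namely *Phgdh* at 0.472 (0.352 to 0.629), and in the TKO remote zone 0 of 9, against 4.64%. *Gdf15* in the remote zone was 1.38 in WT (1.13 to 1.69) and 0.843 in TKO (0.664 to 1.07). These ratios share the left ventricle library of their genotype and are given side by side.

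The rest of the pathway was read from lists of other genes. Each list count is to be read beside that of all 12999 genes tested. Of these, 3670 were higher and 3715 lower in the infarct zone against the left ventricle (56.8% in either direction). Against the border and remote zones 3595 were higher and 3454 lower (54.2%), and under total counts 7869 were higher and 1084 lower than in the left ventricle. Of 21 other ATF4 and CHOP response genes, 10 were higher and 5 lower in the infarct zone against the left ventricle, with a median log2 difference of 0.52. *Nupr1*, a stress-induced chromatin protein, rose most, by 2.90 ± 0.35 (edgeR adjusted p = 0.00139), from 4.82 CPM in the WT and 7.57 in the TKO left ventricle to 57.0 and 38.8 in the infarct zones. *Chac1*, a glutathione-degrading enzyme of the ATF4–CHOP branch, fell by 1.79 (SE 0.60, adjusted p = 0.0411), but its WT left ventricle stood apart at 12.7 CPM, where the other 7 libraries lay between 1.77 and 5.16. *Cth*, the cystathionine lyase that makes cysteine, fell by 1.75 (SE 0.54, adjusted p = 0.0308), and here too the WT left ventricle stood apart, at 4.45 CPM against 0.638 to 2.53 in the other 7 libraries. Against the border and remote zones 11 were higher and 2 lower.

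Serine and one-carbon enzymes other than the members were split, with 3 higher and 5 lower of 14, and a median of -0.22 that became 0.47 with total counts. Against the border and remote zones 4 were higher and 5 lower. *Mthfd1l*, which completes the mitochondrial formate pathway after MTHFD2, rose by 2.16 ± 0.26 (edgeR adjusted p = 0.00139), and *Tyms*, the thymidylate synthase, rose by 1.18 ± 0.21 (adjusted p = 0.00441). *Aldh1l1*, the cytosolic formyltetrahydrofolate dehydrogenase, fell by 1.26 (SE 0.22, adjusted p = 0.00397). The summed cycling cell markers were 2.55-fold in the WT and 2.25-fold in the TKO infarct zone relative to the left ventricle, and their part in the *Mthfd2*, *Mthfd1l*, and *Tyms* differences was not tested.

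The tRNA synthetases, classical ATF4 targets whose promoters held the core most often, had 7 of 12 lower and 0 higher with TMM scaling (median -0.39), and 0 lower and 6 higher with total counts (median 0.29, below the 0.71 of all genes). Against the border and remote zones 2 were lower and 0 higher (median -0.22). *Iars* fell by 0.59, *Eprs* by 0.56, and *Lars* by 0.54 with TMM. Mitochondrial chaperones and proteases, the targets of the mitochondrial unfolded protein response, were lower in 10 of 12 and higher in 0 (median -1.19), and with total counts in 10 and 2 (median -0.51). Against the border and remote zones 11 were lower and 0 higher (median -0.89). *Clpx* fell by 1.52 (SE 0.16, edgeR adjusted p = 0.000983), *Dnaja3* by 1.43, and *Hspd1* by 1.41, from 403 CPM in the WT and 400 in the TKO left ventricle to 115 and 196 in the infarct zones.

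Upstream, of 14 genes of eIF2 control 4 were higher and 9 lower, with 6 higher and 2 lower under total counts and 3 higher and 7 lower against the border and remote zones. *Eif2ak3*, the kinase PERK of the endoplasmic reticulum, rose by 1.08 ± 0.16 (edgeR adjusted p = 0.00212), while *Dele1* fell by 1.54 (SE 0.21, adjusted p = 0.00178) and *Oma1* by 1.0 (SE 0.13, adjusted p = 0.00173), both of the mitochondrial relay. *Dele1* had 150 and 146 CPM in the left ventricle of WT and TKO and 37.7 and 67.3 in the infarct zones. Of 15 endoplasmic reticulum genes 1 was higher and 8 lower, and under total counts 6 and 1. The direction of this list turned with the reference as well, with 5 higher and 4 lower against the border and remote zones (median 0.23, against -0.55 over the left ventricle). Over the left ventricle, *Hspa5*, the chaperone BiP, fell by 1.32 (SE 0.14), *Dnajb9* fell by 0.72 (SE 0.11), and *Edem1*, a degradation factor, rose by 1.31 ± 0.17. Cardiomyocyte markers fell in the same comparison, 8 of 8, with sums at 0.217 of the left ventricle in WT and 0.450 in TKO, and fibroblast markers rose, 8 of 8. The part of the change in cell makeup was not tested.

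Of the 4 mitokine receptor genes tested, both *Fgfr2* (3.54 ± 0.26 on the log2 scale, edgeR adjusted p = 0.000351) and *Fgfr1* (1.84 ± 0.11, adjusted p = 0.000248) rose in the infarct zone. The same 2 were higher against the border and remote zones. *Fgfr1* went from 35.6 and 25.6 CPM to 119 and 98.5. The coreceptor *Klb* and the GDF15 receptor *Gfral* were not analysed here.

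Between genotypes across regions 0 genes of these lists passed edgeR's quasi-likelihood test, and DESeq2 called 2 of the receptors, both lower in TKO, and 0 genes of the other pathway lists. In the same test DESeq2 called 3 of 8 macrophage, 2 of 8 fibroblast, 2 of 6 lymphocyte, and 1 of 8 cycling cell markers, each lower in TKO, and edgeR called 0 of these, with 7, 3, 4, and 5 at an unadjusted p under 0.05. Of all 12999 genes 2109 had an unadjusted p under 0.05 in this test, 6557 lay lower in TKO, and 6442 lay higher. Among the other ATF4 and CHOP response genes 4 of 21 had an unadjusted p under 0.05, and 15 lay lower in TKO (median -0.11). Among the mitochondrial chaperones and proteases 3 of 12 did, and 11 lay higher in TKO (median 0.22). Cardiomyocyte markers lay higher in TKO in 8 of 8 (median 0.35, 0 at an unadjusted p under 0.05) and macrophage markers lower in 8 of 8 (median -0.32), and their part in these list differences was not tested.

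The genes whose pattern over the 8 libraries was nearest to a member were ranked by the root mean square (RMS) difference of centred log2 CPM. For *Atf4* they were *Usp12*, *Atrx*, and *Fem1b*, each at 0.04, where the median gene had 0.34. *Ddit3* ranked 206 for *Atf4*, with an RMS difference of 0.10, and the other 7 members ranked from 3813 to 10835. For *Phgdh* they were *Cerkl* (0.18), *Usp17la* (0.19), and *Aldh1a2* (0.19), against a median of 0.75. *Aldh1a2* had 6.42 CPM in the WT and 3.90 in the TKO left ventricle and 11.1 and 10.3 in the infarct zones. For *Gdf15* they included *Kif4* (0.16) and *Ccna2* (0.16), against a median of 0.64. *Ccna2* had 5.94 CPM in the WT and 2.87 in the TKO border zone. *Mthfd2* was the member nearest to *Gdf15*, at rank 98 (0.32). Likeness over 8 libraries is a description, and low genes are affected by counting error.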

How the data were processed

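RNA was measured in 8 libraries, 1 per genotype and region. The authors trimmed reads with Trim Galore 0.6.5, quantified transcripts with kallisto 0.46 on mm10 (GRCm38), and worked in edgeR 3.34.1, per the submitters' processing notes, and they deposited estimated counts per gene as whole numbers, without normalization. Whether counting was stranded is not given in the sources used here. Totals were 27429240 to 33799249 counts.

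Counts were analysed in R 4.3.3 with edgeR 4.0.16 (TMM and dispersion from the genes averaging 1 CPM or more; additive quasi-likelihood fit of region and genotype, with 3 residual degrees of freedom; interaction fits for departures; Benjamini-Hochberg over all genes tested) and, as an alternative, DESeq2 1.42.0. SE is the log2 fold divided by the root of F. Ratios of 2 libraries have exact Clopper-Pearson 95% intervals and were counted at 2-fold after a prior count of 2. The edgeR fit was tested on simulated data for TKO against WT across regions with 12933 genes. There it called 96.8% of 95 genes changed 2-fold, 100% of 100 changed 4-fold, and 4 of 12738 unchanged genes. In the measured libraries the same comparison called *Tigar* at -4.44 (log2, edgeR adjusted p = 0.006). It did not call *Cd79b* at -1.47 (adjusted p = 0.191) or *Ccnb1* at -1.01 (adjusted p = 0.294). The share of 2-fold changes that the fit calls in the measured libraries was not tested. Alternatives were other scalings, filters, prior counts, and fold limits, DESeq2, leaving out each region, and, chosen after seeing the data, another reference for the infarct zone. Gene positions and exon lengths came from GENCODE by Ensembl identifier, and promoters from RefSeq by symbol. All members were named, and from each other list up to 3 called genes with the largest fold per tested comparison; for *Atf4*, *Phgdh*, and *Gdf15*, the 3 nearest genes were named, except 1 that is not reported here. Under the reference added later, counts and some medians are given for the other lists, and no folds of single genes. The members and lists were chosen with earlier results of these data known. Intervals came from scipy 1.17.1, and Python 3.11.15 with pandas 2.3.3, numpy 2.4.6, and matplotlib 3.10.9 did the rest.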

Additional observations from a re-analysis of the deposited data

Results flagged for a closer look

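For *Ddit4* (REDD1, an ATF4-responsive inhibitor of mTORC1) the TKO against WT difference in the left ventricle departed from that in the other regions by -2.19 ± 0.14 (log2, SE; edgeR's quasi-likelihood test, adjusted p = 0.0157): the left ventricle had 103 CPM in WT and 30.3 in TKO, whereas TKO lay above WT in the infarct (73.2 and 95.8), border (82.9 and 114), and remote zones (72.6 and 97.6). *Herpud1*, an endoplasmic reticulum degradation factor, departed by -1.78 ± 0.20 (adjusted p = 0.0454), with 379 CPM in the WT and 150 in the TKO left ventricle against 92.0 and 139 in the infarct zones, 148 and 187 in the border zones, and 168 and 221 in the remote zones. Both rest on 1 WT and 1 TKO library of left ventricle.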

How the results depend on the processing

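No member was called between genotypes or in a departure test under any alternative run. The number of all genes called for genotype, 18, became 56 with total counts, 342 with DESeq2, and 80, 6, 5, and 3 without the left ventricle, infarct, border, and remote regions. The log2 genotype difference of *Trib3* turned to -0.09 with total counts, -0.08 without the infarct region, and -0.01 without the remote region, and that of *Asns* to -0.07 with total counts and -0.14 without the border region. For *Gdf15* it was -0.31 without the border region, its smallest value. In the infarct zone 9 members rather than 5 were called with total counts, 6 with at least 10 counts in every library, 4 with no filter, and 4 with DESeq2. Over all genes these settings called 8953, 7320, 7542, and 7197 in place of 7385. Against the border and remote zones 3 members and 7049 genes were called. Border zone calls over all genes went from 93 to 200 with total counts and 576 with DESeq2. Remote zone calls went from 0 to 18 with total counts, 3 with no filter, 3 with at least 10 counts in every library, and 162 with DESeq2. The border zone difference of *Psat1* turned to 0.05 with total counts. For the infarct zone departure, *Asns*, *Phgdh*, and *Mthfd2* turned to -0.24, -0.23, and -0.02 with total counts, and the 1 gene called became 0 with at least 10 counts and 288 with DESeq2. For the left ventricle departure, 84 genes became 275 with total counts, 140 with at least 10 counts, and 280 with DESeq2.

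A 1.5-fold limit in place of 2-fold gave 1, 2, and 2 members for TKO over WT in the infarct, border, and remote zones. Of the 12999 genes tested, 2110, 1551, and 1230 passed this limit in the same order. Over the left ventricle the 1.5-fold limit gave 5 members in the WT and 4 in the TKO infarct zone. It gave 2 in the WT and 1 in the TKO border zone, and 1 in the TKO remote zone. Genes past this limit numbered 7049, 6035, 2447, 1998, and 1649 of 12999 in the same order. At 2-fold, total counts gave 7 members in the WT and 4 in the TKO infarct zone, where 6079 and 4093 of 12999 genes passed. No filter gave 1 member in each, where 6300 and 5188 genes passed. Genes at least 2-fold apart numbered 463 to 4371 over the 10 comparisons, and 1493 to 6300 with no filter. Apart from total counts, the causes were not tested. Of 362 tests of single members under alternatives 342 kept their direction and their side of the threshold, 6 gained and 5 lost a call, and 9 turned in direction. No paired analysis was possible because each genotype and region has 1 library and the labels carry no replicate numbers, beyond the region block of the fit.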
